A study of Mus musculus with 8 samples.

Results

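The genes described here encode the respiratory chain: complexes I to IV, which pass electrons from NADH and succinate to oxygen, and complex V, the ATP synthase that uses the proton gradient they build. They were chosen by symbol, as rows of the deposited table named mt-, Ndufa, Ndufb, Ndufc, Ndufs or Ndufv with a number, Sdha to Sdhd, Uqcr, Cox4 to Cox8 or Atp5. The rule took 101 of 22274 genes, 13 of them mitochondrially encoded and 88 nuclear, and 91 of the 101 had enough reads to be tested. RNA was sequenced from a mouse kidney line named RFB, given as fibroblasts, after TGF-β, the cytokine known for inducing matrix deposition. In 4 libraries the cells carried an adenovirus for Cre recombinase (ad-CRE), which removes DNA between loxP sites, and in 4 an adenovirus for the green fluorescent protein GFP (ad-GFP). All 8 libraries therefore share the line, TGF-β and an adenovirus. The series names Suv39h1, a histone H3 lysine 9 methyltransferase, as the gene lowered, while the labels describe neither the allele on which Cre acts nor whether the replicates were separate cultures of the line. The p-values are thus read against the variation among these libraries, and that may be technical.

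The respiratory chain is built from 2 genomes. Mitochondrial DNA supplies the most hydrophobic core subunits of complexes I, III, IV and V, transcribed as long precursors by a dedicated polymerase inside the organelle, and complex II is encoded wholly in the nucleus. The nuclear genes, scattered over the chromosomes and read by the ordinary transcription machinery, supply the remaining core subunits and all accessory ones, and excess unassembled subunits are degraded. The kidney tubule is among the tissues richest in mitochondria.

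Total counts ranged over 17572152 to 22297598 in ad-CRE libraries and 15998257 to 20920828 in ad-GFP libraries. Suv39h1 had 32.3, 32.9, 33.4 and 31.6 CPM (reads relative to the scaled library total) in ad-CRE libraries, against 37.2, 43.6, 44.1 and 41.3 in ad-GFP libraries, so every ad-CRE library lay below every ad-GFP library (log2 fold change -0.35, SE 0.0530, edgeR adjusted p = 8.65e-07). The label fibroblast was only partly borne out by markers. Of 12 fibroblast markers 10 were tested, 9 fell and 1 rose, and Lum and Fap were under 1 CPM. Their summed level was 783 to 841 CPM in ad-CRE against 1846 to 1938 CPM in ad-GFP libraries. Most of that sum was a single gene, Vim, with means of 693 CPM in ad-CRE and 1614 CPM in ad-GFP libraries. Of 13 tubular epithelial markers 11 were tested, 7 rose and 3 fell, with sums of 5001 to 5169 against 2321 to 2563 CPM, Slc34a1 under 1 CPM and Aqp2 at 0. All 8 endothelial markers fell (70.5 to 78.8 against 168 to 179.6 CPM), and of 6 leukocyte markers tested of 8, 5 fell (155 to 163 against 217 to 249 CPM), with Cd3e at 0. The part of these marker shifts in the results below was not tested, and in bulk RNA fewer cells of a type and less RNA per cell cannot be told apart.

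Across the whole table, 73.1% of the 13702 genes tested passed an edgeR adjusted p of 0.05, made up of 36.8% that rose and 36.3% that fell. Against that background 56 of the 91 members tested passed, 41 as rises and 15 as falls. Of the 13 mitochondrially encoded mRNAs, 11 rose, 0 fell and 2 did not pass, and the median log2 fold change was 0.17. Of the 78 nuclear members tested, 30 rose, 15 fell and 33 missed the threshold, and the median was 0.02. That balance depended on the scaling: 25 rose and 19 fell with total counts only, and 23 rose and 19 fell on both log2 FPKM scales, while 11 mitochondrial mRNAs rose in each. The passing share was 57.7% among nuclear members, below the 73.1% of all genes. Their shifts were also smaller than usual for these libraries: the median absolute log2 fold change was 0.12, against 0.32 over all genes tested, and 0.22 against 0.45 among those that passed. In all, 33.9% of genes tested passed with an absolute log2 fold change of at least 0.5, but only 2 of the 78 nuclear members did (Ndufc1 and Cox6b2) and 0 of the 13 mitochondrial mRNAs. For 33.4% of all genes the lowest ad-CRE library exceeded the highest ad-GFP library, and for 32.8% the highest ad-CRE library was under the lowest ad-GFP library. Of the 78 nuclear members 20 were above and 11 below in this sense, and of the 13 mitochondrial mRNAs 11 were above and 0 below.

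**Figure D1:**
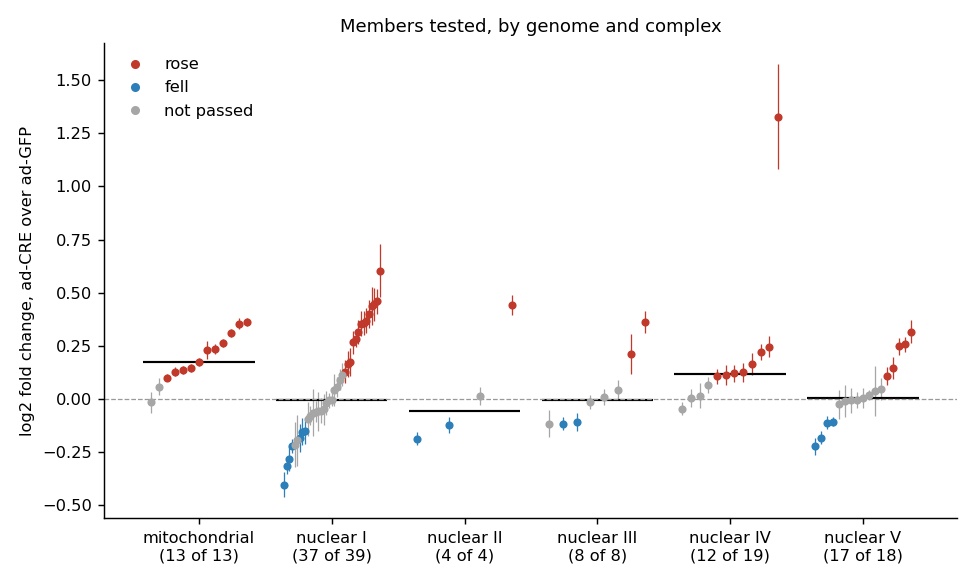
Log2 fold change (ad-CRE over ad-GFP) of every member tested, with its standard error, for mitochondrially encoded mRNAs and for nuclear members of complexes I to V. Colours mark members that rose, fell or did not pass an edgeR adjusted p of 0.05, horizontal bars mark medians, and labels give the number tested of those in the table. The mitochondrial points lie between -0.02 and 0.36, while the nuclear ones spread on both sides of 0, apart from complex IV, where none passed as a fall. Ndufa4, which fell, is placed in complex I by its name.

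Since each library holds both kinds of transcript, the summed mitochondrial over the summed nuclear count was taken within libraries, a ratio that no scaling between libraries alters. It was 13.5, 14.0, 13.6 and 14.1 in ad-CRE libraries, against 12.1, 11.9, 12.3 and 12.2 in ad-GFP libraries. All 4 ad-CRE ratios were above all 4 ad-GFP ratios, a 1.14-fold difference in means (13.8 ± 0.302 against 12.1 ± 0.181, SD, n = 4 each). The groups were apart on the mitochondrial side and overlapped on the nuclear side. Mitochondrial mRNAs took 7.30% ± 0.103 of all counts in ad-CRE and 6.55% ± 0.0593 in ad-GFP libraries (SD, n = 4 each), without overlap. Nuclear members took 0.529% ± 0.00455 in ad-CRE and 0.539% ± 0.0103 in ad-GFP libraries, and the groups overlapped. No p-value is given for these sums.

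The same ratio was taken within each complex. Members were placed by name, so Ndufa4, since assigned to complex IV, counted in complex I. Complex III, whose only mitochondrial subunit is cytochrome b, had a mitochondrial over nuclear ratio of 14.0 ± 0.523 in ad-CRE and 11.1 ± 0.181 in ad-GFP libraries. For complex I the ratio was 22.5 ± 0.739 in ad-CRE and 19.3 ± 0.482 in ad-GFP libraries, and for complex V it was 2.06 ± 0.0628 in ad-CRE and 1.83 ± 0.0479 in ad-GFP libraries (SD, n = 4 each throughout). In those 3 complexes the groups did not overlap. For complex IV the ratio was 39.1 ± 0.756 in ad-CRE and 38.1 ± 0.925 in ad-GFP libraries, with overlap. There the nuclear side was higher in ad-CRE too on the CPM scale. Its summed level was 873 ± 4.12 CPM in ad-CRE and 826 ± 24.4 CPM in ad-GFP libraries, without overlap. Unlike the ratio, this sum depends on the scaling between libraries: taken against total counts, the groups would overlap. Both complex IV results depend on the place of Ndufa4, which is outside these sums. Ndufa4 had 58.0 ± 1.97 CPM in ad-CRE and 72.2 ± 1.93 CPM in ad-GFP libraries. Counted in complex IV, it would make the nuclear sums overlap and set the ratios narrowly apart.

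**Figure D2:**
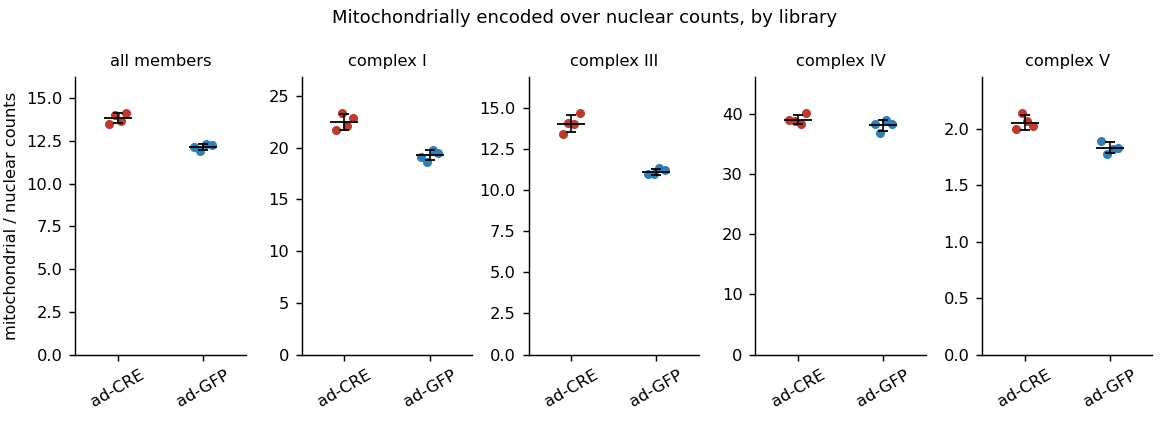
Summed mitochondrially encoded counts over summed nuclear counts in each library, for all members and for complexes I, III, IV and V, with ad-CRE left of ad-GFP. Points are libraries and bars are mean and SD (n = 4); the vertical axes start at 0. The groups are apart for all members (1.14-fold) and for complexes I, III and V, and overlap for complex IV. Ndufa4 is counted in complex I by its name, and the overlap for complex IV depends on that.

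The 13 mitochondrial mRNAs lie close together on the mitochondrial chromosome, and neighbours overlap by more than 1 base in 3 places, where a read can belong to 2 genes at once. The overlaps are shown because they bear on how well a short mRNA can be counted apart from its neighbour. Sequences are from GENCODE M21 transcripts (GRCm38), on the plus strand, with the shared bases in capitals. The overlap of mt-Atp8 and mt-Atp6 is 43 bases (chrM:7917-7979 shown), that of mt-Nd4l and mt-Nd4 is 7 bases (chrM:10140-10200), and that of mt-Nd5 with the opposite-strand gene mt-Nd6 is 14 bases (chrM:13529-13588).
mt-Atp8 and mt-Atp6: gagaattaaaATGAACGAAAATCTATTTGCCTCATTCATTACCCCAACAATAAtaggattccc
mt-Nd4l and mt-Nd4: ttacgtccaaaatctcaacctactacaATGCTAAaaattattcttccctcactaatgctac
mt-Nd5 and mt-Nd6: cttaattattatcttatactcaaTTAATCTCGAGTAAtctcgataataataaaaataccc
The sources used here do not say how the authors' counting shared such reads or whether it used strand, and values of these neighbours are uncertain to that extent. Reads from nuclear copies of mitochondrial DNA are subject to the same limit. If strand was not used, plus-strand reads anywhere across mt-Nd6 would count for it, beyond the 14 shared bases.

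Among the 7 mitochondrial subunits of complex I, which form the proton-pumping membrane arm, 6 rose and mt-Nd3 did not pass. The gene with the largest rise of the 13 was mt-Nd5 (ENSMUSG00000064367, chrM:11742-13565, plus strand). It had 5966, 6196, 6016 and 6083 CPM in ad-CRE libraries, against 4648, 4791, 4718 and 4738 CPM in ad-GFP libraries. The groups lay far apart beside their spread (log2 fold change 0.36, SE 0.0183, edgeR adjusted p = 3.05e-17). Its neighbour mt-Nd6 (chrM:13552-14070), the only mRNA of the minus strand, had 885, 979, 902 and 905 CPM in ad-CRE libraries, against 714, 718, 734 and 706 CPM in ad-GFP libraries. It too rose without overlap (log2 fold change 0.35, SE 0.0263, edgeR adjusted p = 3.39e-13). Since strand use is not given, plus-strand reads may be part of the mt-Nd6 count, and its rise may not be separate from that of mt-Nd5. Rises of 0.26 for mt-Nd4, 0.23 for mt-Nd2, 0.23 for mt-Nd4l and 0.14 for mt-Nd1 followed on the log2 scale, with edgeR adjusted p-values of 1.51e-05 or less. For mt-Nd3 the ad-CRE libraries had 410.4, 431, 426 and 461 CPM and the ad-GFP libraries 366, 431, 420.4 and 446 CPM, with overlap (log2 fold change 0.06, edgeR adjusted p = 0.203). With no filter beyond 1 read mt-Nd3 passed as a rise (0.07, edgeR adjusted p = 0.0189).

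For complex III, mt-Cytb, the cytochrome that takes electrons from ubiquinol, had 7244, 7490.2, 7446 and 7625 CPM in ad-CRE libraries and 5856, 6069, 6017 and 6074 CPM in ad-GFP libraries. All ad-CRE libraries were higher (log2 fold change 0.31, SE 0.0189, edgeR adjusted p = 2.45e-15). In complex IV the 3 catalytic-core mRNAs rose, with smaller log2 fold changes than mt-Cytb. The most abundant of all, mt-Co1, which carries the site where oxygen is reduced, averaged 13928 ± 195 FPKM (a count per length and depth) in ad-CRE and 13260.0 ± 108 FPKM in ad-GFP libraries (SD, n = 4 each). Its rise was the smallest of the 11 called (log2 fold change 0.10, SE 0.0158, edgeR adjusted p = 2.26e-06), with no overlap between groups. The rises of mt-Co2 and mt-Co3 were 0.13 and 0.17 on the log2 scale (edgeR adjusted p = 1.06e-05 and 1.74e-09).

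The ATP synthase mRNAs share a bicistronic transcript. The difference between them was not tested. For mt-Atp6, part of the proton channel, the rise was 0.14 (SE 0.0190, edgeR adjusted p = 1.75e-07). For mt-Atp8, the ad-CRE libraries had 129.7, 136, 164 and 132 CPM and the ad-GFP libraries 135, 149, 140.3 and 145 CPM. Replicate 3 of ad-CRE was the highest of the 8 and the other ad-CRE libraries lay within or under the ad-GFP range, and the difference did not pass (log2 fold change -0.02, edgeR adjusted p = 0.756). Without that library mt-Atp8 fell by 0.10 on the log2 scale (edgeR adjusted p = 0.0146). The gene is the shortest and lowest of the 13, with 681 ± 77.3 FPKM in ad-CRE and 704 ± 30.2 FPKM in ad-GFP libraries, and 43 of its bases are shared with mt-Atp6 (first sequence printed).

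**Figure D3:**
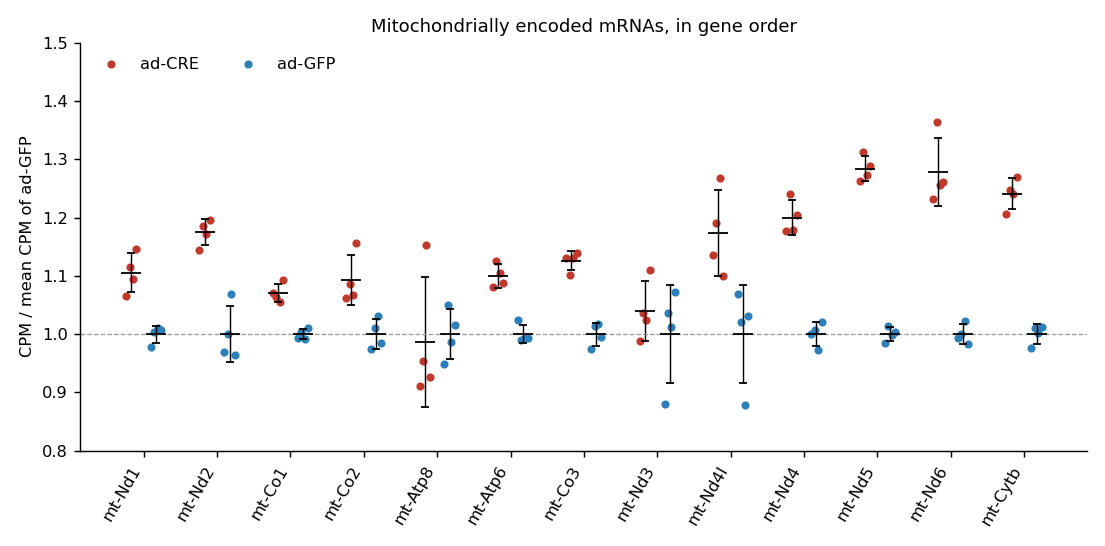
CPM of each mitochondrially encoded mRNA in each library, divided by that gene's mean in the ad-GFP libraries, in gene order along the mitochondrial chromosome, with ad-CRE left of ad-GFP. Points are libraries and bars are mean and SD (n = 4). The last 4 genes in the order, mt-Nd4, mt-Nd5, mt-Nd6 and mt-Cytb, show the largest rises, and mt-Atp8 and mt-Nd3 overlap between groups.

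Log2 fold changes were set beside position on the chromosome. The 4 genes farthest along it, mt-Nd4, mt-Nd5, mt-Nd6 and mt-Cytb, had the 4 largest log2 fold changes. Over the 13 mRNAs, Spearman's rho between midpoint and log2 fold change was 0.626, and over the 12 of the plus strand 0.545, while gene length gave 0.473. These are descriptions only, since the genes share libraries, precursor transcripts and overlapping bases. Expressed as a share of all mitochondrial mRNA counts, mt-Nd5 made up 8.23% ± 0.105 in ad-CRE and 7.28% ± 0.0440 in ad-GFP libraries (SD, n = 4 each). The share of mt-Cytb was 10.1% ± 0.0921 in ad-CRE and 9.25% ± 0.0833 in ad-GFP libraries. In the opposite direction, mt-Co1 made up 29.5% ± 0.341 in ad-CRE and 31.3% ± 0.319 in ad-GFP libraries. The shares of mt-Nd4 and mt-Nd6 were also higher in ad-CRE, that of mt-Nd1 was lower, and the other 7 overlapped between groups. These changes in make-up do not depend on how libraries were scaled, because they are within-library shares. The count of mt-Nd5 over that of mt-Co1, a pair chosen after their values were seen, was 0.279 ± 0.00593 in ad-CRE and 0.233 ± 0.00237 in ad-GFP libraries.

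Per length, the mitochondrial mRNAs stood above every nuclear member. The lowest of them, mt-Atp8, was above the most abundant nuclear member, Atp5b, which had 482 ± 7.55 FPKM in ad-CRE and 530.2 ± 4.59 FPKM in ad-GFP libraries. The 88 nuclear members lie on 19 chromosomes.

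Complex I, the NADH dehydrogenase that feeds most electrons into the chain, had 39 nuclear members in the table, of which 37 were tested. Of these, 14 rose, 7 fell and 16 did not pass. By these calls 3 of 7 core subunits rose and 1 fell, and 11 of 30 accessory subunits rose and 6 fell. Several calls were fragile. The core fall, Ndufs7 (log2 fold change -0.15, edgeR adjusted p = 0.0271), was lost with DESeq2 and without ad-CRE replicate 1 or 4 or ad-GFP replicate 1. The core rise of Ndufv2 (0.13, edgeR adjusted p = 0.0323) was lost with DESeq2, total counts only and both log2 FPKM scales. It was also lost with a filter of 5 CPM in 4 libraries, and without ad-CRE replicate 1 or 4 or ad-GFP replicate 1, 3 or 4. Calls of the accessory Ndufa11, Ndufb10, Ndufb11 and Ndufs5 were lost when some single libraries were left out. Of the core, Ndufv1, the flavoprotein that accepts electrons from NADH, had 69.9, 70.2, 70.6 and 68.5 CPM in ad-CRE libraries, against 58.1, 58.2, 57.8 and 55.5 CPM in ad-GFP libraries. The groups did not overlap (log2 fold change 0.28, SE 0.0385, edgeR adjusted p = 1.29e-07).

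The accessory subunit Ndufa7 of the matrix arm had 28.1, 29.1, 33.1 and 32.5 CPM in ad-CRE libraries and 23.7, 22.4, 21.3 and 21.9 CPM in ad-GFP libraries. Every ad-CRE library was higher (log2 fold change 0.46, SE 0.0603, edgeR adjusted p = 6.74e-08). Ndufc1, a small subunit of the membrane arm, showed the largest complex I rise, from a low level. It had 7.15, 7.75, 8.005 and 6.91 CPM in ad-CRE libraries, against 4.402, 6.17, 4.90 and 4.10 CPM in ad-GFP libraries, where replicate 2 was highest but still under all ad-CRE libraries (log2 fold change 0.60, SE 0.124, edgeR adjusted p = 7.29e-05). On the log2(FPKM + 1) scale its difference was 0.38. Next in log2 fold change were Ndufs6 (0.45), Ndufa2 (0.44), Ndufb6 (0.40) and Ndufb7 (0.37), all accessory subunits.

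Among the falls, Ndufv3, an accessory subunit beside the NADH site, had 20.8, 19.8, 19.5 and 19.9 CPM in ad-CRE libraries and 27.7, 24.7, 27.2 and 26.4 CPM in ad-GFP libraries. This was the largest fall of any member (log2 fold change -0.40, SE 0.0577, edgeR adjusted p = 2.87e-07), without overlap, though it was -0.23 on the log2(FPKM + 1) scale. Ndufa4, named for complex I but since assigned to complex IV, had 59.5, 55.1, 59.0 and 58.3 CPM in ad-CRE libraries and 70.2, 72.2, 71.6 and 74.8 CPM in ad-GFP libraries. All ad-CRE libraries were lower (log2 fold change -0.32, SE 0.0398, edgeR adjusted p = 3.13e-08). Its hypoxia-induced relative Ndufa4l2 had too few reads to be tested. The other falls included Ndufa12 and Ndufa10, with log2 fold changes of -0.28 and -0.22.

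Complex II, succinate dehydrogenase, links the citric acid cycle to the chain, and of its 4 subunit mRNAs 1 rose, 2 fell and 1 did not pass. Sdhc (ENSMUSG00000058076, chr1:171127165-171150603, minus strand, GRCm38), a membrane anchor that binds haem and ubiquinone, had 56.3, 59.8, 56.1 and 51.0 CPM in ad-CRE libraries, against 39.6, 42.8, 41.3 and 41.2 CPM in ad-GFP libraries. It rose without overlap (log2 fold change 0.44, SE 0.0481, edgeR adjusted p = 1.76e-09). Its partner anchor Sdhd had 63.2, 68.0, 67.0 and 62.8 CPM in ad-CRE libraries and 69.4, 72.6, 72.0 and 70.6 CPM in ad-GFP libraries, and fell (log2 fold change -0.12, SE 0.0393, edgeR adjusted p = 0.00569). The catalytic flavoprotein Sdha had 139.7, 136, 134 and 137 CPM in ad-CRE libraries and 159, 154, 155 and 155 CPM in ad-GFP libraries, and fell as well (log2 fold change -0.19, SE 0.0293, edgeR adjusted p = 1.24e-06). The iron-sulphur subunit Sdhb overlapped between groups (log2 fold change 0.01, edgeR adjusted p = 0.817). Within libraries, the count of Sdhc over that of Sdha, a pair chosen after its values were seen, was 0.408 ± 0.0284 in ad-CRE and 0.265 ± 0.0116 in ad-GFP libraries, a 1.54-fold difference without overlap.

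Complex III, the cytochrome bc1 complex, had 8 nuclear members, and 2 rose, 2 fell and 4 did not pass. Uqcrh, the hinge protein that joins cytochrome c to the complex, had 42.1, 37.6, 38.2 and 39.0 CPM in ad-CRE libraries, against 29.6, 32.5, 29.6 and 30.6 CPM in ad-GFP libraries. It rose without overlap (log2 fold change 0.36, SE 0.0515, edgeR adjusted p = 3.08e-07). Uqcrc1, a large matrix-side core protein, had 135, 127, 127 and 125 CPM in ad-CRE libraries and 141, 141, 139 and 138 CPM in ad-GFP libraries, and fell (log2 fold change -0.12, SE 0.0313, edgeR adjusted p = 0.00133). The remaining calls were fragile. The rise of the small subunit Uqcr11 (log2 fold change 0.21, edgeR adjusted p = 0.0479) was 0.13 (edgeR adjusted p = 0.236) without ad-CRE replicate 1. Its call was also lost without ad-CRE replicate 2 or without ad-GFP replicate 1, 3 or 4, where edgeR adjusted p ran up to 0.123. In all it was lost in 13 of 19 alternative settings, among them DESeq2, limma voom, total counts only and both log2 FPKM scales. The fall of Uqcrq (log2 fold change -0.11, edgeR adjusted p = 0.0238), the most abundant nuclear member of the complex per length, was lost without replicate 1 or 4 of either group, with edgeR adjusted p-values of 0.0766 to 0.101 and log2 fold changes of -0.09 to -0.08. On the log2(FPKM + 1) scale the difference of Uqcrq was -0.035 (limma adjusted p = 0.474).

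Complex IV, cytochrome c oxidase, was the complex in which no nuclear member fell, counting by name and so without Ndufa4. This holds for the edgeR fit with its filter on low counts. With no filter beyond 1 read Cox6a2 passed as a fall, and Cox4i1 passed as a fall in the settings given for it here. Of its 19 members 12 were tested, 8 rose and 4 did not pass (median log2 fold change 0.12). Cox7a2l, a factor that helps complex III and IV join into a supercomplex, had 74.4, 76.5, 75.6 and 75.1 CPM in ad-CRE libraries, against 62.8, 64.0, 67.2 and 65.3 CPM in ad-GFP libraries. It rose without overlap (log2 fold change 0.22, SE 0.0376, edgeR adjusted p = 6.37e-06). The rises of the structural subunits Cox7b (0.24), Cox7a2 (0.16), Cox6b1 (0.12) and Cox8a (0.11), given as log2 fold changes, had edgeR adjusted p-values of 6.47e-05, 0.00626, 0.0116 and 0.00782. The call of Cox6b1 was lost without ad-CRE replicate 3 (0.10, edgeR adjusted p = 0.0589), and the calls of Cox5a, Cox6b1, Cox7c and Cox8a were lost on both log2 FPKM scales. That of Cox5a was also lost without ad-GFP replicate 1, and that of Cox7c with total counts only and without ad-CRE replicate 2 or 4 or ad-GFP replicate 1 or 3. Cox4i1, a regulatory subunit and one of the most abundant of the complex, had 172, 171, 169.9 and 169 CPM in ad-CRE libraries and 179, 184, 167 and 174 CPM in ad-GFP libraries, with overlap (log2 fold change -0.05, edgeR adjusted p = 0.163). Without ad-GFP replicate 3 its value was -0.07 with an edgeR adjusted p of 0.0387, and it passed as a fall in 5 of 19 alternative settings, among them total counts only and both log2 FPKM scales.

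Several complex IV subunits come as isoforms made in particular tissues, and the ubiquitous form was the one read here. Cox6b2, a form known from testis, was the exception, with the largest log2 fold change of all members at a very low level. Its counts were 45, 29, 49 and 28 reads in ad-CRE libraries and 18, 12, 13 and 12 reads in ad-GFP libraries, or 1.86 ± 0.357 CPM in ad-CRE and 0.740 ± 0.0983 CPM in ad-GFP (SD, n = 4 each; log2 fold change 1.33, SE 0.247, edgeR adjusted p = 1.97e-05). Per length that was 3.62 ± 0.686 FPKM in ad-CRE and 1.43 ± 0.212 FPKM in ad-GFP libraries, against 99.6 ± 4.99 FPKM in ad-CRE and 93.4 ± 3.70 FPKM in ad-GFP libraries for Cox6b1. The forms known from heart and skeletal muscle, Cox6a2 and Cox7a1, and the form known from lung, Cox4i2, had too few reads to be tested. Cox6a2, for one, had 0, 0, 1 and 0 reads in ad-CRE libraries and 3, 2, 3 and 1 reads in ad-GFP libraries. The muscle and brown fat form Cox8b and the testis forms Cox8c and Cox7b2 were at 0 in every library, as were Ndufb11b and a second gene ID of Atp5o, and the pseudogene Cox5b-ps had 1 read in all. With Ndufa4l2 these are the 10 members not tested. In the smallest library a count of 0 allows up to 0.188 CPM, counting 3 reads as the limit and covering counting error only. Of 6 markers of brown fat and skeletal muscle, Ucp1, Cidea, Myh1, Myh4 and Ckm were under 1 CPM, and Acta1 had 78.2 ± 6.03 CPM in ad-CRE and 347 ± 36.6 CPM in ad-GFP libraries.

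Complex V, the ATP synthase, had 18 nuclear members, 17 of them tested, and 5 rose, 4 fell and 8 did not pass. Atp5b, the catalytic beta subunit, had 950.3, 915, 929 and 938 CPM in ad-CRE libraries, against 999.7, 1017, 1008 and 1003 CPM in ad-GFP libraries. All ad-CRE libraries were lower by a small margin (log2 fold change -0.11, SE 0.0214, edgeR adjusted p = 3.77e-05). The gamma subunit of the rotor, Atp5c1, fell by 0.18, Atp5o, the peripheral stalk protein that confers oligomycin sensitivity, by 0.23, and the stalk subunit Atp5pb by 0.11 on the log2 scale (edgeR adjusted p = 8.76e-06, 1.37e-05 and 0.00135). The alpha subunit Atp5a1, which alternates with beta in the head, had 515, 516, 521 and 524 CPM in ad-CRE libraries and 505, 519.8, 509 and 518 CPM in ad-GFP libraries, with overlap (log2 fold change 0.02, edgeR adjusted p = 0.518).

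Among the rises, the rotor subunit Atp5d had 129, 133, 133 and 125 CPM in ad-CRE libraries and 115, 110.1, 106 and 103 CPM in ad-GFP libraries, without overlap (log2 fold change 0.26, SE 0.0351, edgeR adjusted p = 1.32e-07). Atp5l, a subunit of the membrane part, rose by 0.25, and the peripheral stalk subunit Atp5h by 0.10 on the log2 scale (edgeR adjusted p = 2.71e-06 and 0.0267). The call of Atp5h was lost with total counts only and without ad-CRE replicate 1 or 2 or ad-GFP replicate 1 or 3. The c-ring that turns with the proton flow is encoded by 3 genes for the same mature protein. Of these Atp5g2 had 56.5, 48.6, 56.3 and 54.6 CPM in ad-CRE libraries and 39.5, 42.8, 47.4 and 44.5 CPM in ad-GFP libraries, and rose without overlap (log2 fold change 0.32, SE 0.0534, edgeR adjusted p = 4.92e-06). The rise of Atp5g1 (log2 fold change 0.14, edgeR adjusted p = 0.0112) was 0.10 without ad-GFP replicate 3 (edgeR adjusted p = 0.0684) and 0.07 on both log2 FPKM scales, and Atp5g3 did not pass (log2 fold change -0.005, edgeR adjusted p = 0.911). Reads that fit closely related gene copies, as for the c-ring genes and the processed pseudogenes of many subunits, may have been shared among them.

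**Figure D4:**
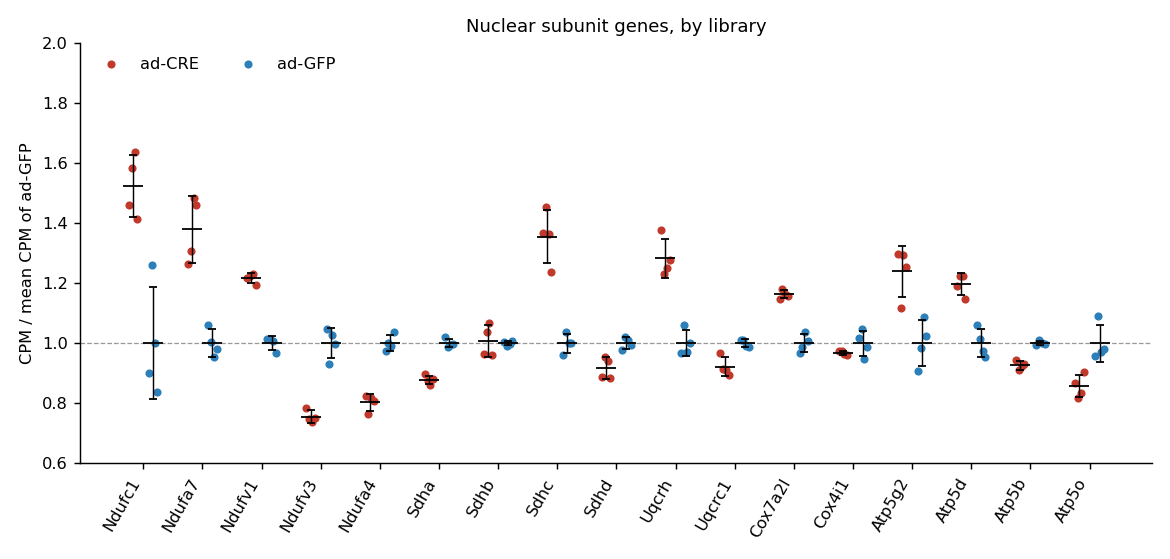
CPM of 17 nuclear members in each library, divided by that gene's mean in the ad-GFP libraries, for complex I (Ndufc1 to Ndufa4), II (Sdha to Sdhd), III (Uqcrh, Uqcrc1), IV (Cox7a2l, Cox4i1) and V (Atp5g2 to Atp5o), with ad-CRE left of ad-GFP. Points are libraries and bars are mean and SD (n = 4). Complexes I, II, III and V each show rises and falls, as Sdhc (log2 fold change 0.44) and Sdha (-0.19) in complex II. For complex IV, Cox7a2l rose and Cox4i1 did not pass. The 17 are a selection of the 78 nuclear members tested.

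Nuclear members that rose tended to have a shorter annotated exon length and to be less abundant than those that fell. This length joins the exons of all annotated transcripts of a gene, so it can exceed the length of the mRNA made. The median exon length was 1271 bases for the 30 that rose, 1908 for the 15 that fell and 1801 for the 33 that did not pass, and their median ad-GFP levels were 29.8, 82.3 and 39.2 CPM in the same order. Across the 78 genes, Spearman's rho between this annotated length and log2 fold change was -0.155, against 0.001 over 13686 genes tested with a length. These are descriptions across genes of the same libraries.

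Promoters of respiratory genes are known for sites of nuclear respiratory factor 1 and of the GA-binding protein, an ETS family factor. The windows of RefSeq (GRCm38.p6), from 250 bases before to 50 bases after the start of transcription, were found for 69 nuclear members and searched on both strands for CCGGAAG, an ETS core of 7 bases, and for GCGCATGC, a core of the respiratory factor's site. Neither motif contains the other on either strand. The 69 include 3 members that were not tested, in which neither core was found. The ETS core was in 24.6% of the 69 members, against 19.1% of 10774 genes tested and 9.9% of all 27025 genes with a window. It was in 9 of 27 members that rose, 1 of 14 that fell and 7 of 25 that did not pass. The respiratory factor's core was in 14.5% of the members, against 5.7% of genes tested and 3.0% of all genes, with 3 of 27 that rose, 2 of 14 that fell and 5 of 25 that did not pass. For neither core was the split by call taken over all genes tested, so it cannot be called particular to the members. The windows printed are those of Ndufb7 and Uqcrh, which rose, and of Sdhd, which fell. Among the 14 falls with a window, only Sdhd held an ETS core. Ndufb6, the largest rise with an ETS core in its window (log2 fold change 0.40), is not printed. Each window is on its gene's strand, with the ETS core or its reverse complement in capitals. The windows are chr8:83566508-83566807 (plus strand) for Ndufb7, chr4:116075021-116075320 (minus strand) for Uqcrh and chr9:50603800-50604099 (minus strand) for Sdhd.
Ndufb7: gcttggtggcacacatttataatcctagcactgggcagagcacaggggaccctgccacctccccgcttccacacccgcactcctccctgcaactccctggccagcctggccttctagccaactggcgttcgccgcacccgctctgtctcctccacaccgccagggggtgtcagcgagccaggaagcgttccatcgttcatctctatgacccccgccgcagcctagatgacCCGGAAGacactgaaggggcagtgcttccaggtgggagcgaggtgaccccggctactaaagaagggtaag
Uqcrh: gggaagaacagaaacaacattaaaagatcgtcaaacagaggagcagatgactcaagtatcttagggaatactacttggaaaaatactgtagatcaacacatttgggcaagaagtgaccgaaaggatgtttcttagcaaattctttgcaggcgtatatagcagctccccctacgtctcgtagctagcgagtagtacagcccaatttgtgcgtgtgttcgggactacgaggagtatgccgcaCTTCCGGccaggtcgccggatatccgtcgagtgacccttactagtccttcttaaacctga
Sdhd: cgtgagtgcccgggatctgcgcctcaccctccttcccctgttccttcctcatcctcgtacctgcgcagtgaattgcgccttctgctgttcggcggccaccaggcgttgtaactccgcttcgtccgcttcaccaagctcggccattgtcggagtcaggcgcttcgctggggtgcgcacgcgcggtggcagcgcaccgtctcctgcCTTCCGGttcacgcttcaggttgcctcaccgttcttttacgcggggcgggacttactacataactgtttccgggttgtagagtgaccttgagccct
A match is a description of these letters, not a binding site or a cause.

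The nuclear regulators of respiratory genes leaned down. Of 21 tested, 12 passed as falls and 3 as rises, at a median log2 fold change of -0.18. Ppargc1a, the coactivator PGC-1α that drives mitochondrial biogenesis, had 2.90, 2.71, 2.22 and 3.05 CPM in ad-CRE libraries, against 10.7, 10.1, 10.1 and 9.88 CPM in ad-GFP libraries. All ad-CRE libraries were lower, at a low level (log2 fold change -1.91, SE 0.12, edgeR adjusted p = 6.22e-15), and its relative Ppargc1b fell as well (log2 fold change -1.64, edgeR adjusted p = 4.01e-09). The GA-binding protein subunit Gabpb2 fell to 36.0 ± 2.17 CPM in ad-CRE libraries, against 72.0 ± 1.67 CPM in ad-GFP libraries (SD, n = 4 each; log2 fold change -0.999, edgeR adjusted p = 1.54e-18). The DNA-binding subunit Gabpa fell by 0.20 on the log2 scale (edgeR adjusted p = 0.000149), with overlapping groups, and the nuclear receptor Ppard by 0.53 (edgeR adjusted p = 5.98e-10). Nrf1, the respiratory factor itself, and the receptor Esrra did not pass (0.007 and -0.004; edgeR adjusted p = 0.912 and 0.948).

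In the machinery of mitochondrial DNA upkeep and transcription, 9 of the 24 genes tested were called as rises and 5 as falls (median log2 fold change 0.08). Tfam, which packages mitochondrial DNA and starts its transcription, had 31.6, 32.5, 34.4 and 34.5 CPM in ad-CRE libraries, against 40.1, 40.8, 45.3 and 44.4 CPM in ad-GFP libraries. It was lower in every ad-CRE library (log2 fold change -0.36, SE 0.0513, edgeR adjusted p = 3.2e-07), while the mitochondrial mRNAs above were mostly higher. Polrmt, the mitochondrial RNA polymerase, did not pass (log2 fold change -0.03, edgeR adjusted p = 0.65). Of the genes with the smallest p, the nuclease and helicase Dna2 fell by 1.60, the polymerase Polg fell by 0.32 and the ligase Lig3 rose by 0.54 on the log2 scale (edgeR adjusted p = 1.74e-18, 5.69e-08 and 2.07e-13).

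Mitochondrial RNA processing and stability was covered by 25 genes, with 11 falls and 5 rises (median log2 fold change -0.10). Pnpt1, the polynucleotide phosphorylase of the mitochondrial RNA degradosome, had 37.6, 35.7, 37.7 and 37.7 CPM in ad-CRE libraries, against 66.4, 64.6, 64.3 and 61.2 CPM in ad-GFP libraries. It fell without overlap (log2 fold change -0.79, SE 0.0436, edgeR adjusted p = 2.51e-16). Trmt10c, a subunit of the RNase P that frees mRNAs from the precursor by cutting out tRNAs, fell by 0.75, and the oligonucleotide nuclease Rexo2 rose by 0.27 (edgeR adjusted p = 5.51e-14 and 6.55e-08).

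Assembly factors of the complexes were split, with 14 rises, 16 falls and 20 genes that did not pass among 50 tested (median log2 fold change 0.05). Ndufaf7, a methyltransferase needed to build complex I, had 16.5 ± 0.638 CPM in ad-CRE and 8.86 ± 0.538 CPM in ad-GFP libraries (SD, n = 4 each; log2 fold change 0.90, edgeR adjusted p = 1.26e-11). The complex IV factors Coa3 and Coa5 rose by 0.83 and 0.36 (edgeR adjusted p = 2.59e-12 and 6.5e-12).

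The citric acid cycle and pyruvate dehydrogenase list, which supplies the chain with electrons, had 12 falls, 5 rises and 7 genes that did not pass of 24 (median log2 fold change -0.08). Its smallest p-values, given with log2 fold changes, were those of the NADP-linked isocitrate dehydrogenase Idh2 (-1.22), the kinase Pdk4, which inhibits pyruvate dehydrogenase (-1.97), and the NAD-linked isocitrate dehydrogenase subunit Idh3a (-0.55), with edgeR adjusted p-values of 2.06e-20, 2.31e-18 and 1.46e-13. Carriers and partners of the chain outside the symbol rule gave 9 rises, 10 falls and 12 that did not pass of 31 (median log2 fold change 0.03). Among them, on the log2 scale, the ring-forming scaffold prohibitin Phb rose (0.43), and the ADP/ATP carrier Slc25a5 (-0.24) and the electron transfer flavoprotein subunit Etfb (-0.46) fell (edgeR adjusted p = 3.64e-12, 4.27e-09 and 6.49e-09). In mitochondrial import, through which every nuclear subunit reaches its complex, 10 of 31 genes were called as falls and 8 as rises (median log2 fold change -0.01). The chaperones Hspd1 and Hspa9 and the inner membrane channel Timm23 fell by 0.50, 0.43 and 0.38 on the log2 scale (edgeR adjusted p = 2.05e-16, 1.69e-16 and 3.53e-10). For comparison, 36.8% of all genes tested rose, 36.3% fell, and their median log2 fold change was 3.9e-05.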

How the data were processed

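SMARTer mRNA libraries were made from RNeasy-purified RNA, per the labels' protocols. The authors deposited a read count and an FPKM value (per length and depth) for each gene and library, per the file headers. Builds GRCm38 and mm10 appear in the submitters' processing notes; the aligner, the counter and strand use were not given in the sources used here.

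Counts of all 8 libraries were fitted over the whole table in R 4.3.3 with edgeR 4.0.16 (filterByExpr, TMM scaling, glmQLFit and glmQLFTest, group as the only term), with Benjamini-Hochberg adjustment over the 13702 genes tested. CPM are counts scaled to the TMM library size. The fit was also run on simulated counts with far fewer changed genes than here, balanced up and down. That run does not test the scaling under changes as widespread as these. Alternatives used DESeq2 1.42.0, limma 3.58.1 (voom, and log2 FPKM with pseudocounts of 1 and 0.1), other scalings, filters and thresholds, a replicate block, and leaving out each library. No replicate was a copy of another: within groups, chi-square over degrees of freedom was 1.69 to 3.25. Positions came from GENCODE M21, in which all 101 IDs were found.

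The members and the lists of markers and pathways were chosen with earlier results of these data known. Named were every mitochondrial mRNA; in each complex the 2 rises and the 2 falls with the smallest p and the 2 most abundant members per length; members past 0.5 on the log2 scale; isoform families; and in each pathway list the 3 genes with the smallest p plus a few set regulators. Not every gene that this rule takes is reported here. Other members named (Ndufs6, Ndufa2, Ndufb6, Ndufb7, Ndufa12, Ndufa10, Ndufs7, Ndufv2, Ndufa11, Ndufb10, Ndufb11, Ndufs5, Ndufa5, Ndufa9, Uqcr10, Sdhb, Atp5pb, Atp5h, Cox5a and Cox7c) were chosen after their values were seen.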

Additional observations from a re-analysis of the deposited data

Results flagged for a closer look

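Of 92 groups of 4 libraries examined, 5 held a library whose gap to its nearest neighbour took more of the group's whole range than Dixon's critical value for 4 allows; chance gives about 1 group in 20. All 5 were ad-GFP groups. For mt-Atp6, replicate 1 was high, with 4484 CPM against 4334 to 4353 CPM in the others (gap share 0.869). For Ndufv1, replicate 4 was low, with 55.5 CPM against 57.8 to 58.2 (0.8498). For Cox6a1, replicate 3 was low, with 91.5 CPM against 99.8 to 101 (0.877). For Atp5g3, replicate 4 was low, with 78.0 CPM against 79.8 to 80.2 (0.830). The summed nuclear members took 0.555% of counts in replicate 2, against 0.533% to 0.535% in the others (0.877).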

How the results depend on the processing

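In 19 alternative settings, 44 to 56 of the 56 called members were still called in the same direction and 0 turned round; the fewest was at an adjusted p of 0.01. For the mitochondrial mRNAs, the median log2 fold change of 0.171 became 0.143 with total counts only, 0.146 with a filter of 5 CPM in 4 libraries, and 0.144 on both log2 FPKM scales (pseudocounts 1 and 0.1). The log2 ratio of mitochondrial over nuclear counts, 0.186, was 0.147 on both FPKM scales, where lengths weigh the sums. The number of mitochondrial mRNAs that fell was 0 to 1 when each library was left out in turn, the 1 being mt-Atp8 without ad-CRE replicate 3. Of nuclear regulators 1 rose on the FPKM scales, against 3 by counts, and 5 import genes rose at an adjusted p of 0.01, against 8 at 0.05. For the named members' log2 fold changes, 779 values were on the same side of the threshold with the same direction, 30 lost the call, 7 gained it and 0 turned round. With total counts only, 4734 genes rose and 5287 fell, against 5047 and 4975, and the median of all genes shifted to -0.03. Replicate numbers are shared by the groups but are not stated to pair the libraries, and the main fit did not use them. Same-numbered libraries' deviations correlated at 0.0327, -0.0383, -0.0701 and 0.0719, and not every library correlated best with its own number. Such values cannot show whether libraries were prepared in pairs. For nuclear members, 25 rose and 19 fell with total counts only or with the filter of 5 CPM, 23 and 19 on the FPKM scales, 25 and 13 with DESeq2, 22 and 11 at an adjusted p of 0.01, and 23 to 32 and 12 to 17 when each library was left out, against 30 and 15. With total counts only, Cox4i1, Ndufa5, Ndufa9 and Uqcr10 were gained, all as falls. With the replicate block, 30 nuclear members rose and 15 fell, and 11 mitochondrial mRNAs rose, with all 56 calls kept. Depth limits the 10 members not tested. The causes of these shifts were not tested.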
